A study of Mus musculus with 14 samples.

Results

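Sodium, calcium and pacemaker channel genes were examined in hearts with a cardiomyocyte knockout of Fam210a and in control hearts. A gene belonged to the set when its symbol marked a voltage-gated sodium channel subunit (Scn), a voltage-gated calcium channel subunit (Cacn) or a hyperpolarization-activated pacemaker channel (Hcn), and when each count table gave it 10 or more counts in at least 3 libraries. Of 53735 symbols, 43 carried such a name and 27 of these passed the count limit. Pore-forming subunits made up 14 of the 27, among them Scn3a, Scn4a, Scn7a, Scn10a, Cacna1a, Cacna1c, Cacna1d, Cacna1g, Cacna1h, Cacna1s, Hcn2 and Hcn4. The other 13 were accessory subunits, among them Scn2b, Scn3b, Scn4b, Cacna2d1, Cacna2d2, Cacna2d3, Cacnb1, Cacnb2, Cacnb3, Cacnb4, Cacng6 and Cacng7. The values of 24 genes are given by name.

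Knockout mice (cKO) had the genotype Fam210afl/fl, alphaMHCMCM/+, and controls had the genotype alphaMHCMCM/+. Both carried MerCreMer, a Cre recombinase that tamoxifen activates and that the Myh6 promoter confines to cardiomyocytes, and both received tamoxifen, so the controls share the transgene and the drug. All mice were male C57BL/6, and their age was not given. Hearts were taken about 5 weeks after tamoxifen (early, 4 cKO and 4 control libraries), when heart function was described as normal, and about 10 weeks after it (late, 3 cKO and 3 control libraries), when function was described as severely reduced. Poly-A RNA of whole hearts was sequenced. As each time has a count table of its own, an effect of time on a level cannot be told apart from an effect of the table, and levels are compared only within a time.

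Voltage-gated sodium channels carry the fast upstroke of the cardiac action potential, and voltage-gated calcium channels carry the calcium entry that triggers contraction. Pacemaker channels open on hyperpolarization and drive the spontaneous rhythm of the sinoatrial node. In each sodium or calcium channel a single large pore subunit forms the conducting path, while smaller accessory subunits set its delivery to the membrane and its gating. In this gene set, pacemaker channels are represented by pore subunits alone.

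Libraries held 16377291 to 19466469 counts in early cKO hearts and 15657298 to 16737466 in early controls, and 30420805 to 35750964 counts in late cKO hearts and 29989076 to 32530969 in late controls. The targeted gene Fam210a averaged 146 ± 10.2 CPM (counts scaled to a fixed library size) in early cKO hearts and 170 ± 6.04 CPM in early controls (SD, n = 4 each), with a log2 fold change of -0.22 and an adjusted p of 0.17. Late, it averaged 66.8 ± 3.41 CPM in cKO hearts and 128 ± 7.27 CPM in control hearts (SD, n = 3 each), with a log2 fold change of -0.94 and an adjusted p of 6.5e-05. Summed cardiomyocyte markers stood at 60327 to 71084 CPM in late cKO hearts and 67245 to 76753 CPM in late controls. Of these 8 markers 3 fell (Tnni3, Myl2 and Myl3), or 37.5%, beside 33.2% of all genes that fell late. Late cKO replicate 3 stood apart: the chi-square that compared its counts with the other late cKO libraries was 97.3 and 91.9 a gene, and between those libraries it was 19.8. The title of early cKO replicate 4 names a knockout and its genotype field the control genotype, and it was grouped by its title.

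Among the channel genes the late knockout hearts showed opposite changes within families. Cacnb1, which encodes the calcium channel β subunit best known from skeletal muscle, was 15.3-fold higher in late cKO hearts. Scn4b, a sodium channel β subunit, was 40.7-fold lower, Cacng6 12.5-fold lower, Scn4a 10.5-fold lower and Cacna1g 5.83-fold lower. Cacna1c, the main calcium channel pore of ventricular cardiomyocytes, did not pass the test. In all, 4 of the 27 rose and 12 fell at an adjusted p under 0.05, or 59.3%, while 65.0% of the 14942 genes tested passed late (31.8% rose and 33.2% fell). The share among channel genes is therefore no higher than the background. Their median absolute log2 fold change was 0.69 and that of all genes 0.71, while their median signed change was -0.68 and that of all genes -0.02. Among the 12 that fell, Scn2b and Cacng6 entered the late test only through their control libraries.

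**Figure D1:**
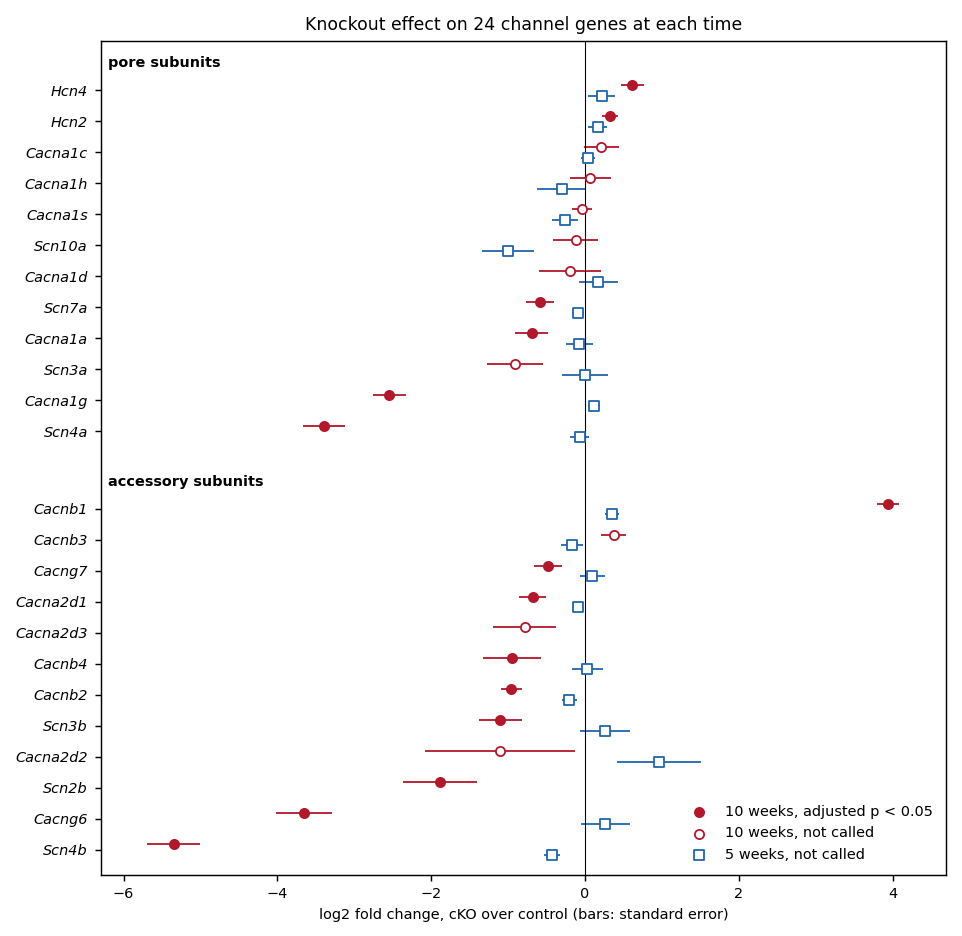
Log2 fold changes of cKO over control hearts (x axis) for 24 channel genes (y axis), late in red circles and early in blue squares, with bars for standard errors and filled symbols for an adjusted p under 0.05. Late values run from -5.35 for Scn4b to 3.94 for Cacnb1, and no early value was called.

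Scn4a, the sodium channel pore of skeletal muscle (chr11:106318592-106353288, minus strand), had 3.85, 3.10 and 1.51 CPM in late cKO hearts, against 28.7, 30.7 and 30.6 CPM in late controls. Every cKO value lay far below every control. The log2 fold change was -3.40 (SE 0.27, adjusted p = 9.06e-06). Scn7a, an atypical sodium channel known as a sodium sensor, had 23.4, 19.8 and 15.3 CPM in cKO hearts and 23.7, 30.7 and 33.5 CPM in controls. The groups did not overlap, although cKO replicate 1 and control replicate 1 nearly met. Its log2 fold change was -0.59 (SE 0.18, adjusted p = 0.0191), and the call was lost without control replicate 2, control replicate 3 or cKO replicate 2, with adjusted p of 0.0626, 0.0721 and 0.0516. Scn3a, mainly a neuronal channel, lay lower in every cKO heart, with a mean of 0.876 CPM in cKO hearts and 1.67 CPM in control hearts, and did not pass (log2 fold change -0.92, adjusted p = 0.0513). Scn10a, known from sensory neurons, overlapped between the groups (-0.12, adjusted p = 0.735).

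Sodium channel β subunits are single-span membrane proteins that modulate the pore and act in adhesion. Scn4b (chr9:45138395-45154152, plus strand) had 2.05, 1.65 and 0.583 CPM in late cKO hearts, against 57.1, 70.2 and 49.9 CPM in late controls. All cKO hearts were far below all controls. The log2 fold change was -5.35 (SE 0.34, adjusted p = 2.85e-06), and it ranged from -5.68 to -4.99 over the alternatives tried. Scn2b, which like Scn4b is linked to the pore by a disulfide bond and lies next to it on chromosome 9, had 0.241, 0.114 and 0.103 CPM in cKO hearts and 0.749, 0.660 and 0.330 CPM in controls. The groups did not overlap, at a level of few counts, and Scn2b entered the late test only through its control libraries. Its log2 fold change was -1.88 (SE 0.48, adjusted p = 0.00732).

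Scn3b, which binds the pore without such a bond, had 0.813, 0.597 and 0.514 CPM in late cKO hearts and 1.11, 1.51 and 1.53 CPM in late controls, all cKO values below all controls (log2 fold change -1.10, SE 0.28, adjusted p = 0.00749).

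**Figure D2:**
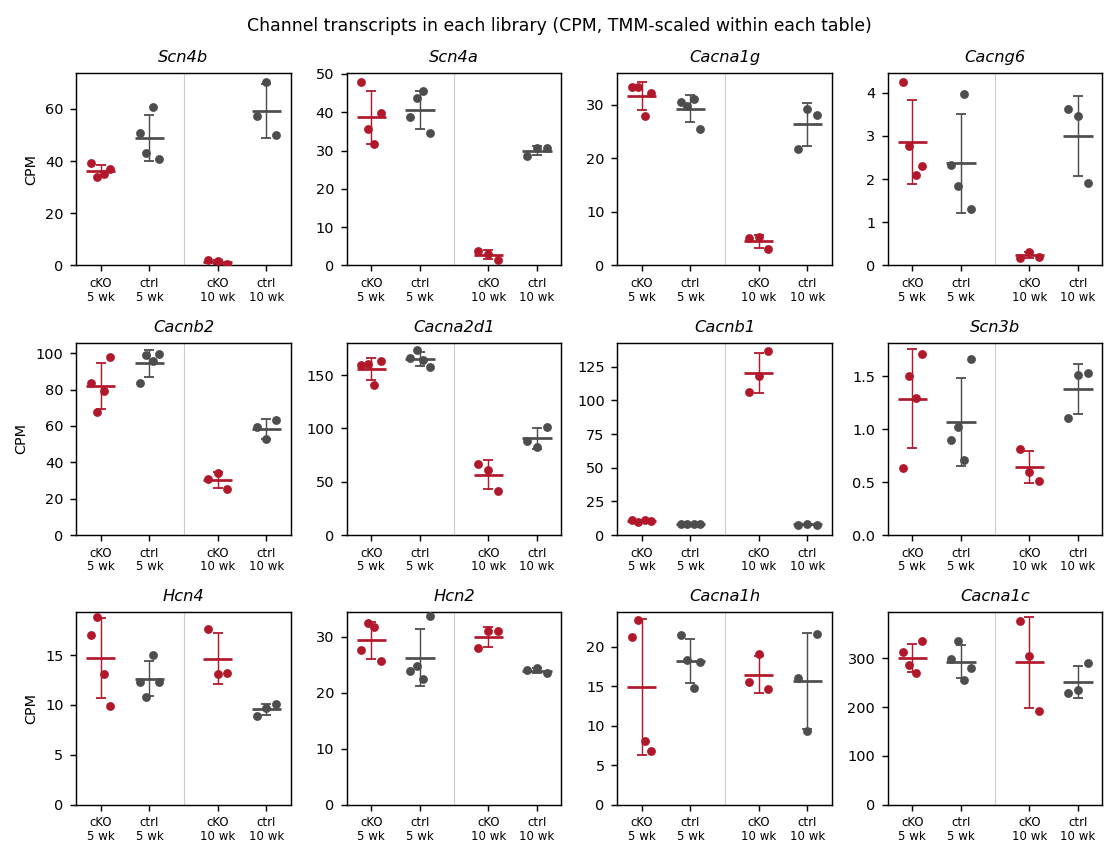
CPM of 12 channel genes in every library (points), with the group mean and SD (lines and bars), cKO in red and control in grey, early left and late right in each panel. Late cKO values of Scn4b lie at 2.05 CPM or below and those of Cacnb1 at 106 CPM or above, while Cacna1c and Cacna1h overlap between the groups.

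Among the calcium channel pores, the main cardiac pore overlapped between the groups and a T-type pore fell. Cacna1c, the L-type pore that triggers contraction, had 377, 306 and 192 CPM in late cKO hearts, against 229, 236 and 289.8 CPM in late controls. The groups overlapped, with cKO replicate 3 lowest, and the other cKO values exceeded every control. The log2 fold change was 0.21 (SE 0.22, adjusted p = 0.424), and without cKO replicate 3 it was 0.45 (adjusted p = 0.00853). Cacna1g, a T-type pore that opens at low voltage (chr11:94408391-94474198, minus strand), had 5.21, 5.23 and 3.08 CPM in cKO hearts and 21.8, 29.3 and 28.1 CPM in controls. The groups were far apart, with a log2 fold change of -2.54 (SE 0.22, adjusted p = 1.28e-05).

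Cacna1h, the other T-type pore, had 15.6, 19.1 and 14.7 CPM in late cKO hearts and 16.1, 9.37 and 21.6 CPM in late controls. The groups overlapped throughout (log2 fold change 0.07, SE 0.26, adjusted p = 0.828). Whether the knockout effects on Cacna1g and Cacna1h differ from each other was not tested. Cacna1d, an L-type pore of atria and the sinoatrial node, had 3.64, 1.54 and 1.03 CPM in cKO hearts and 2.51, 1.98 and 2.64 CPM in controls. Its highest and its lowest value both came from cKO hearts (-0.19, SE 0.41, adjusted p = 0.696). Without cKO replicate 1, the only late cKO library high in the atrial marker Myl7 (78.8 CPM), the log2 fold change was -0.87 and was called. Cacna1a, a pore of nerve terminals, had 2.92, 2.47 and 2.09 CPM in cKO hearts and 3.16, 4.43 and 4.50 CPM in controls. The groups did not overlap (-0.69, SE 0.22, adjusted p = 0.0188), and the call was lost without control replicate 2, control replicate 3 or cKO replicate 2, with adjusted p up to 0.0708. Cacna1s, the skeletal muscle L-type pore, averaged 11.2 CPM in cKO hearts and 11.6 CPM in control hearts, with overlap (-0.04, SE 0.13). Exons of Gm37759 on the other strand cover 19.98% of its exonic bases, where reads cannot be assigned without strand.

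Cacna1c took 75.6 ± 5.49% of the calcium pore transcripts per kilobase in late cKO hearts and 64.5 ± 0.891% in late controls, and Cacna1g took 2.47 ± 0.216% in cKO hearts and 14.2 ± 2.24% in controls (SD, n = 3 each). Neither share overlapped. The summed calcium pores stood at 18.0 ± 4.60 CPM per kb in cKO hearts and 18.4 ± 2.23 CPM per kb in controls and overlapped.

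Calcium channel β subunits are cytosolic proteins that bind the pore and bring it to the membrane. Cacnb1 (chr11:98001508-98023034, minus strand) was the largest rise in the set. The stretches before 2 of its annotated starts are shown because its transcripts rose most and the starts differ in base composition. They are printed from RefSeq promoter windows on GRCm38.p6, on the gene's strand, with CG dinucleotides in capitals and any bases that overlap an annotated exon left out.
Cacnb1, chr11:98022635-98022877: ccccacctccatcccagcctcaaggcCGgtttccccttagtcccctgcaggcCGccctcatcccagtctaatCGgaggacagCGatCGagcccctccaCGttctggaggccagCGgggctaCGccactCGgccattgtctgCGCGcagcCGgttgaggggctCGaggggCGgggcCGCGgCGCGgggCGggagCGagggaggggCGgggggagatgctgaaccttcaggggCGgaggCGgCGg
Cacnb1, chr11:98018373-98018622: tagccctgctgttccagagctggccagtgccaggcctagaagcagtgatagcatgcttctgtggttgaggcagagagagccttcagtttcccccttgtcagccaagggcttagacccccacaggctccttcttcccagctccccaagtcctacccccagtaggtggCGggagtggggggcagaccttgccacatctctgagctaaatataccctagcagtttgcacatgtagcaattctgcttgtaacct
The first stretch holds 24 CG dinucleotides in 243 bases, a ratio of observed to expected CG of 0.757, and the second holds 1 in 250 bases, a ratio of 0.0514. The median ratio over 32817 promoter windows was 0.373. Counts per gene do not show which start was used.

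Cacnb1 had 106, 118 and 136 CPM in late cKO hearts, against 7.72, 8.42 and 7.38 CPM in late controls. Every cKO heart stood far above every control, and cKO replicate 3 was the highest. The log2 fold change was 3.94 (SE 0.14, adjusted p = 2.08e-07), with a range of 3.77 to 4.03 over the alternatives. Cacnb2, the main β subunit of cardiac L-type channels, had 30.7, 34.1 and 25.4 CPM in cKO hearts and 59.2, 52.7 and 63.3 CPM in controls. All cKO values lay below all controls, with a log2 fold change of -0.96 (SE 0.14, adjusted p = 0.000304). Cacnb1 thus rose and Cacnb2 fell in the same 3 hearts.

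Cacnb3 and Cacnb4 are β subunits best known from the nervous system. Cacnb3 had 7.01, 7.65 and 9.05 CPM in late cKO hearts and 5.44, 6.54 and 6.30 CPM in late controls. The cKO values were all higher, and the late test was not passed (log2 fold change 0.37, SE 0.16, adjusted p = 0.0652). Cacnb4 had 0.542, 0.569 and 0.480 CPM in cKO hearts and 0.554, 1.48 and 1.05 CPM in controls. Its groups overlapped at control replicate 1, and its call (-0.95, SE 0.38, adjusted p = 0.0496) was lost without any other library of either group, with adjusted p up to 0.225. Exons of A430018G15Rik on the other strand cover 15.99% of the exonic bases of Cacnb4, and reads in that stretch cannot be assigned without strand.

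Per kilobase, Cacnb1 took 86.0 ± 1.48% of the β transcripts in late cKO hearts and 22.3 ± 2.13% in late controls, and Cacnb2 took 7.47 ± 1.62% in cKO hearts and 56.7 ± 3.96% in controls (SD, n = 3 each). The ratio of Cacnb1 to Cacnb2 per kilobase was 12.0 ± 3.19 in cKO hearts and 0.396 ± 0.0648 in controls. The summed calcium β level reached 30.9 ± 3.36 CPM per kb in cKO hearts, against 7.78 ± 0.281 CPM per kb in controls. Among the 27 genes ordered by CPM per kb, Cacnb1 was number 2 in late cKO hearts and number 13 in late controls, while Scn4b was number 18 in cKO hearts and number 3 in controls.

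**Figure D3:**
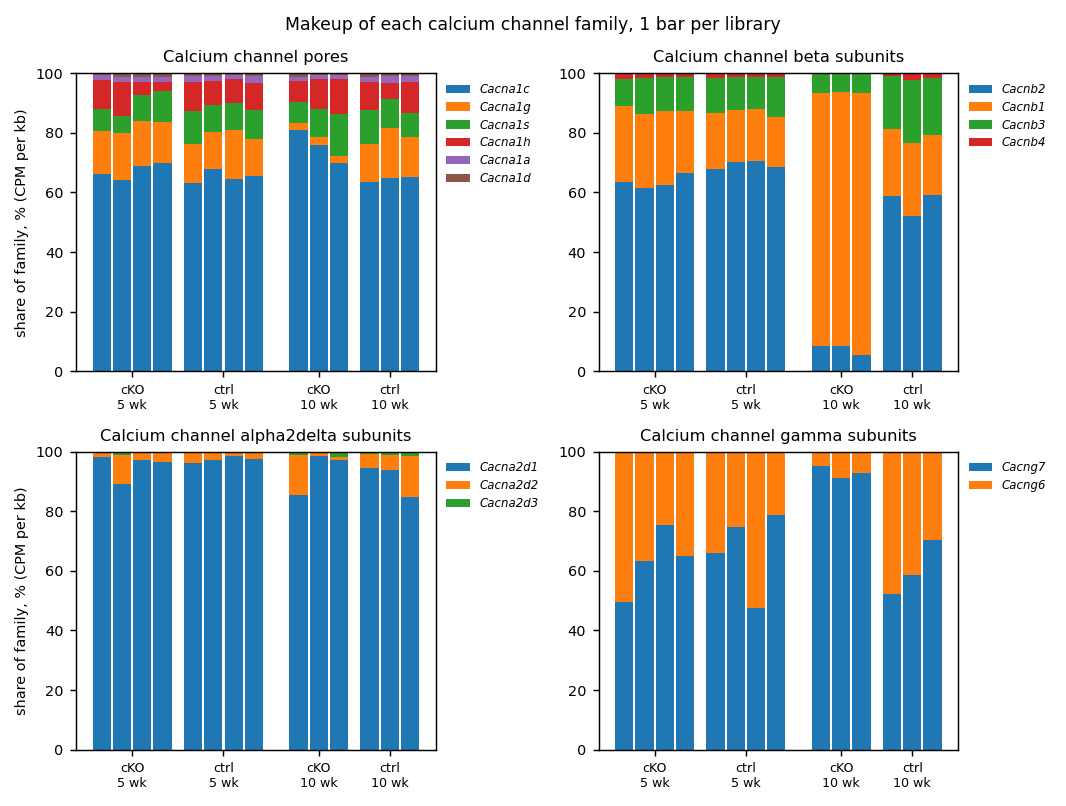
Share of each gene in the summed CPM per kb of its calcium channel family (y axis, percent), 1 bar per library, cKO left of control at each time. Late cKO bars of β subunits are mostly Cacnb1 (86.0% on average, against 22.3% in late controls), and the Cacna1g part of the pore bars is thinner in late cKO hearts (2.47%, against 14.2% in late controls).

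The α2δ subunits sit on the outer face of calcium channels and raise their density at the membrane. Cacna2d1, the main cardiac form, is printed with the stretch before its start because it is the most CG-rich of the windows shown here.
Cacna2d1, chr5:15934441-15934690: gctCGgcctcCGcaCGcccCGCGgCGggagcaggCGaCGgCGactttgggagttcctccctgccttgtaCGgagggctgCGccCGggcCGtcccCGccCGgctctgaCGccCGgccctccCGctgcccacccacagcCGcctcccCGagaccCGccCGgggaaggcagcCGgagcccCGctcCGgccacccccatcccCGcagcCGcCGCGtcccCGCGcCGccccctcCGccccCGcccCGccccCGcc
This plus-strand stretch holds 36 CG dinucleotides in 250 bases, a ratio of 0.921.

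Cacna2d1 had 67.1, 61.1 and 41.3 CPM in late cKO hearts, against 88.0, 82.6 and 101 CPM in late controls. All cKO values were lower, with a log2 fold change of -0.68 (SE 0.18, adjusted p = 0.00836). Its ratio to Cacna1c per kilobase was 0.337 ± 0.0319 in cKO hearts and 0.617 ± 0.0342 in controls (SD, n = 3 each). This ratio did not overlap between the groups, and cKO replicate 3 was the highest cKO value of it (0.367). Cacna2d3 averaged 0.520 ± 0.211 CPM in cKO hearts and 0.888 ± 0.355 CPM in control hearts, with overlap (-0.78, SE 0.41, adjusted p = 0.122).

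The γ subunits are membrane proteins that modulate calcium channels or, in neurons, glutamate receptors. Cacng6 (chr7:3424195-3435667, plus strand) had 0.181, 0.313 and 0.206 CPM in late cKO hearts, against 3.61, 3.46 and 1.92 CPM in late controls. The groups were well apart, with a log2 fold change of -3.65 (SE 0.36, adjusted p = 3.12e-05). The cKO level was one of few counts, and Cacng6 entered the late test only through its control libraries. Cacng7, its neighbour on chromosome 7, had 4.51, 4.04 and 3.22 CPM in cKO hearts and 4.85, 6.04 and 5.58 CPM in controls. It was lower in every cKO heart (-0.48, SE 0.18, adjusted p = 0.0436), and the call was lost without any single library other than cKO replicate 1, with adjusted p up to 0.148. Cacng7 took 93.1 ± 2.04% of the 2 γ transcripts per kilobase in cKO hearts and 60.3 ± 9.17% in controls (SD, n = 3 each).

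Hcn4 is the main pacemaker channel of the sinoatrial node, and Hcn2 is found in the node and in ventricular muscle. The stretches before their starts are printed because these were the pore genes that rose.
Hcn4, chr9:58822699-58822948: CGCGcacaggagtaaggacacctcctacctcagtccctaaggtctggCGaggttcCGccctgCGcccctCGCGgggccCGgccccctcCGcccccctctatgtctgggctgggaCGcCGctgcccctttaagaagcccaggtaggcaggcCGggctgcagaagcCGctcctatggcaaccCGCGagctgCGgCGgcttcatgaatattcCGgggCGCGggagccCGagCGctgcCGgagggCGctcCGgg
Hcn2, chr10:79716384-79716633: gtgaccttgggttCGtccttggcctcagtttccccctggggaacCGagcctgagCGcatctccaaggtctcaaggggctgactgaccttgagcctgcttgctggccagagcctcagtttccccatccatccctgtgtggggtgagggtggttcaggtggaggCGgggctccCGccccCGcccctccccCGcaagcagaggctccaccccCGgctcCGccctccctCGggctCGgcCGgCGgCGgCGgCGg
Both lie on the plus strand. They hold 25 CG dinucleotides for Hcn4, a ratio of 0.792, and 16 for Hcn2, a ratio of 0.519.

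Hcn4 had 17.6, 13.1 and 13.2 CPM in late cKO hearts, against 8.92, 9.68 and 10.0 CPM in late controls. All cKO values were above all controls, and the log2 fold change was 0.62 (SE 0.15, adjusted p = 0.00628). Hcn2 had 27.9, 31.0 and 31.0 CPM in cKO hearts and 24.0, 24.3 and 23.5 CPM in controls. Its groups were also apart (0.32, SE 0.11, adjusted p = 0.0243). The Hcn2 call was lost without any control or without cKO replicate 2, with adjusted p up to 0.0945, and under upper-quartile scaling (0.15, adjusted p = 0.243).

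Accessory and pore subunits can be set side by side. Late, 2 accessory genes rose, 8 fell and 3 did not pass (76.9% called, median log2 fold change -0.95). Among these 8 are Scn2b and Cacng6, which entered the late test only through their control libraries. Of the pore genes, 2 rose, 4 fell and 8 did not pass (42.9% called, median -0.16). These shares lie on either side of the 65.0% of all genes, and their difference was not tested because subunits are not replicates. Summed over the accessory genes the level was 51.0 ± 2.44 CPM per kb in late cKO hearts and 40.7 ± 2.36 in late controls (SD, n = 3 each). The accessory sum without Cacnb1 and Scn4b was 24.1 ± 0.739 CPM per kb in cKO hearts and 27.1 ± 0.762 in controls. Groups did not overlap for 17 of the 27 genes, 5 with cKO hearts higher and 12 with them lower, beside 69.8% of all genes tested. Scn2b and Cacng6 are among those 12 as well.

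Early, none of the 25 channel genes tested was called by edgeR, beside 0.613% of 13529 genes (0.517% higher and 0.0961% lower). Of these 25, 3 had an unadjusted p under 0.05 (Scn4b, Cacnb1 and Scn10a), beside 1387 of the 13529 genes. DESeq2 called 1 of the 25, Scn4b. Cacna2d3 and Scn2b were too low to be tested. Groups did not overlap for those same 3 genes, 1 higher and 2 lower in cKO hearts, beside 5.65% of all genes.

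Scn4b had 39.4, 33.9, 35.0 and 36.9 CPM in early cKO hearts, against 50.7, 43.2, 60.6 and 41.0 CPM in early controls. Every cKO value was lower, with a log2 fold change of -0.43 (SE 0.11, adjusted p = 0.148). Cacnb1 had 11.3, 9.32, 10.8 and 10.5 CPM in cKO hearts and 7.96, 8.48, 8.14 and 8.36 CPM in controls. Every cKO value was higher (0.35, SE 0.09, adjusted p = 0.149). Scn10a had 4.06, 4.17, 1.20 and 1.24 CPM in cKO hearts and 5.86, 5.04, 4.29 and 5.75 CPM in controls. Its cKO values fell into a higher and a lower pair, both below the controls (-0.999, SE 0.34, adjusted p = 0.329).

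Cacnb1 took 24.0 ± 2.04% of the calcium β transcripts per kilobase in early cKO hearts and 17.7 ± 0.851% in early controls (SD, n = 4 each), and Cacnb2 took 63.5 ± 2.22% in cKO hearts and 69.3 ± 1.22% in controls. Neither share overlapped between the groups. Cacnb2 itself had 83.7, 67.5, 79.1 and 97.8 CPM in early cKO hearts and 83.8, 99.3, 95.5 and 99.6 CPM in early controls, with overlap and a log2 fold change of -0.21 (SE 0.10, adjusted p = 0.504). Cacna1h had 21.2, 23.4, 8.08 and 6.85 CPM in cKO hearts and 21.5, 18.4, 14.8 and 18.0 CPM in controls. As for Scn10a, cKO replicates 3 and 4 were low and replicates 1 and 2 were not (log2 fold change -0.30, SE 0.32, adjusted p = 0.806). Summed cardiomyocyte markers were also lower in every early cKO heart, at 57679 to 61687 CPM in cKO hearts and 64068 to 70459 CPM in controls, and their part in these values was not tested. Of 49 genes tested in all marker lists, edgeR called none early and DESeq2 called 1, an adipocyte marker. An unadjusted p under 0.05 was found for 11 of the 49, beside 1387 of all 13529 genes.

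Unlike Scn4b, the genes Scn4a, Cacna1g and Cacng6, which also fell far in late cKO hearts, did not stand apart early. Scn4a had 47.9, 35.7, 31.7 and 39.7 CPM in early cKO hearts and 38.7, 43.7, 45.5 and 34.6 CPM in early controls (log2 fold change -0.07). Cacna1g had 33.3, 33.4, 27.9 and 32.2 CPM in cKO hearts and 30.5, 29.7, 31.1 and 25.5 CPM in controls (0.12). Cacng6 had 4.25, 2.78, 2.09 and 2.30 CPM in cKO hearts and 2.33, 1.85, 3.97 and 1.30 CPM in controls (0.26). The groups of all 3 genes overlapped. Cacna1c had 313, 287, 269.6 and 335 CPM in cKO hearts and 299.6, 335, 256 and 280.4 CPM in controls (0.04, adjusted p = 0.921). Its groups overlapped as well.

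The pacemaker channel genes Hcn4 and Hcn2 overlapped between the groups early. Hcn4 had 17.1, 18.8, 13.1 and 9.86 CPM in early cKO hearts and 12.3, 10.8, 15.1 and 12.3 CPM in early controls (log2 fold change 0.22, SE 0.17). Hcn2 had 27.7, 32.4, 31.8 and 25.6 CPM in cKO hearts and 23.9, 24.7, 22.5 and 33.7 CPM in controls (0.16, SE 0.12). Cacna2d1 had 159.7, 161, 141 and 163 CPM in cKO hearts and 166, 174, 164 and 158 CPM in controls (-0.08, SE 0.06). The groups overlapped, and the other channel genes described here and tested early had log2 fold changes between -0.26 (Cacna1s) and 0.26 (Scn3b), except Cacna2d2. Scn2b, untested, had 0.380 to 0.591 CPM in early cKO hearts and 0.356 to 0.510 CPM in early controls.

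The late knockout effect was then set against the early effect in a fit of all 14 libraries. The effects differed for 13 of the 27 channel genes, or 48.1%, beside 61.2% of the 14555 genes tested. The late effect was the more negative for 10 of them, beside 31.3% of all genes, and the more positive for 3, beside 29.8%. The differences on the log2 scale, late minus early, were largest for Scn4b (-4.90, SE 0.32, adjusted p = 5.42e-09), Cacng6 (-3.89, SE 0.56), Cacnb1 (3.61, SE 0.15, adjusted p = 6.74e-11), Scn4a (-3.31, SE 0.28) and Cacna1g (-2.64, SE 0.21). Cacnb3, not called at either time, was called here (0.56, SE 0.20, adjusted p = 0.025). The call was lost without early control replicate 4, early cKO replicate 1, late control replicate 1 or late cKO replicate 3, with adjusted p up to 0.0639. It was also lost under upper-quartile scaling (0.36, adjusted p = 0.131). The difference was not called for Cacna1c (0.19, SE 0.24, adjusted p = 0.515), Hcn4 (0.42, SE 0.25, adjusted p = 0.165) or Hcn2 (0.18, SE 0.17, adjusted p = 0.39).

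Cacna2d2, an α2δ form, followed single libraries. Cacna2d2 had 1.90, 11.6, 1.99 and 3.31 CPM in early cKO hearts and 3.77, 2.42, 1.03 and 2.31 CPM in early controls. Late, it had 6.62, 0.398 and 0.274 CPM in cKO hearts and 2.67, 2.80 and 10.3 CPM in controls. The high libraries were early cKO replicate 2, late cKO replicate 1 and late control replicate 3.

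The same libraries were high for Myl7, a light chain of atrial muscle. Myl7 had 0.254, 175, 2.49 and 3.13 CPM in early cKO hearts and 22.0, 0.510, 0.320 and 0 CPM in early controls, and 78.8, 0.0853 and 0.240 CPM in late cKO hearts and 15.9, 21.2 and 111 CPM in late controls. Late, 1 of the 6 atrial markers rose (Nppa, also a stress gene of the ventricle), 1 fell (Bmp10) and 4 did not pass. The share called was 33.3%, beside 65.0% of all genes, and DESeq2 called 1 of the 6. Bmp10 had 0.421, 0.483 and 0.754 CPM in late cKO hearts and 0, 0.0943 and 104 CPM in late controls. Only control replicate 3 lay above the cKO hearts, so the call of Bmp10 rested on that library. The summed level of the 6 markers was 1764 to 2978 CPM in late cKO hearts and 142 to 1001 CPM in late controls. Most of the cKO sum was Nppa, with 2623, 1734 and 2376 CPM in cKO hearts and 93.8, 139 and 566 CPM in controls. The groups of Myl7, Myl4, Sln, Bmp10 and Dkk3 overlapped late. None of the markers was at 0 in all late libraries. Late cKO replicate 1 was also the highest late library of Hcn4 (17.6 CPM) and Cacna1d (3.64 CPM), and early cKO replicate 2 the highest early library of Hcn4 (18.8 CPM). Early cKO replicate 4, highest for Cacna1d (3.19 CPM), and early control replicate 3, the highest control of Hcn4 (15.1 CPM), were low in Myl7. The part of atrial tissue in the values of Cacna2d2, Hcn4 and Cacna1d was not tested. Without late cKO replicate 1 the log2 fold change of Cacna2d2 was -3.93 (adjusted p = 0.0022). That fit left out the only late cKO library high in Myl7 and kept the late controls, at 15.9, 21.2 and 111 CPM.

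**Figure D4:**
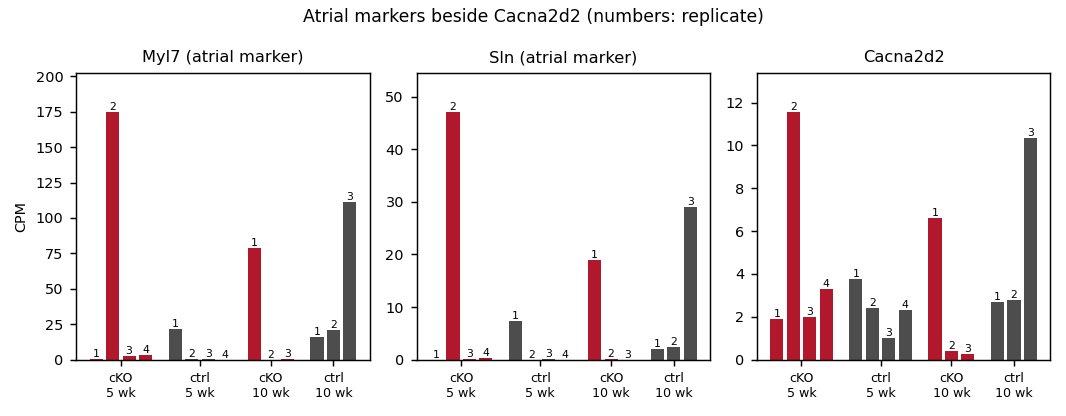
CPM of the atrial markers Myl7 and Sln and of the channel gene Cacna2d2 in every library (bars, with the replicate number on top), cKO in red and control in grey. Early cKO replicate 2, with 175 CPM of Myl7 and 11.6 CPM of Cacna2d2, is the highest early bar in all panels.

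Proteins that bind the channels were read from fixed lists. Of 12 sodium channel partners, 4 rose and 3 fell late. Fgf11 and Fgf14, intracellular fibroblast growth factor homologues that bind the sodium pore, fell by 2.72 (SE 0.22) and by 3.35 (SE 0.68) on the log2 scale. Of the 2, Fgf14 entered the late test only through its control libraries. Rangrf, which aids delivery of sodium channels to the membrane, fell by 1.14 (SE 0.23).

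Calcium channel partners were tested for 13 of 15 genes, of which 2 rose and 5 fell late. Akap5, an anchor of protein kinase A, averaged 0.171 ± 0.109 CPM in late cKO hearts and 4.28 ± 1.24 CPM in late controls (log2 fold change -4.67, SE 0.43, adjusted p = 1.95e-05). Rem1, a small GTPase that inhibits L-type channels, fell by 2.98 (SE 0.34), and Stac, an adaptor of L-type channels, fell by 3.71 (SE 0.62) on the log2 scale. Akap5 and Stac entered the late test only through their control libraries. Calm2, a calmodulin gene, rose (1.58, SE 0.16), while its paralog Calm3, which encodes the same protein, did not pass (0.08).

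Pacemaker channel partners were tested for 3 of 4 genes, and 2 fell late: Mrvi1 (-1.83, SE 0.18) and Lrmp (-1.16, SE 0.23), both known as modulators of Hcn4. Of 9 transcription factors of the conduction system tested, 3 fell and none rose: Hopx (-2.75, SE 0.15), Etv1 (-2.15, SE 0.27) and Tbx3 (-1.50, SE 0.24). The shares called were 58.3% of sodium channel partners, 53.8% of calcium channel partners, 66.7% of pacemaker channel partners and 33.3% of the transcription factors, beside 65.0% of all genes. Early, edgeR and DESeq2 called none of the 35 genes tested in these 4 lists. An unadjusted p under 0.05 was found for 4, 2 calcium channel partners and 2 transcription factors, beside 1387 of all 13529 genes.

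Markers of other cell types moved late beside these channel genes. All 7 endothelial markers fell, and their sum was 407 to 455 CPM in cKO hearts and 948 to 1151 CPM in controls. Of 5 neuron and glia markers tested, of 9 listed, 4 fell, with a sum of 5.79 to 8.82 CPM in cKO hearts and 16.4 to 21.0 CPM in controls. Fibroblast markers fell for 4 of 7, macrophage markers for 5 of 7, adipocyte markers for 1 of 4 tested and smooth muscle and pericyte markers for 7 of 8, while the smooth muscle marker Acta2 rose (2.80, SE 0.24). The shares called were 57.1% of fibroblast, 71.4% of macrophage, 25% of adipocyte and 80% of neuron and glia markers tested. For endothelial and for smooth muscle and pericyte markers the share was 100%. Over all genes, 65.0% were called late and 33.2% fell. Scn3a, Scn7a, Scn10a, Cacna1a, Cacnb3 and Cacnb4 are best known from the nervous system, and the part of other cell types in their values was not tested. Cacnb3 was higher in every late cKO heart (log2 fold change 0.37, adjusted p = 0.0652), while the late log2 fold changes of the others were negative. In whole hearts, fewer cells of a type and less RNA per cell cannot be told apart. Of the skeletal muscle list, Acta1 (4.32, SE 0.31) and Tnnt3 (2.75, SE 0.55) rose and Ckm fell (-1.42, SE 0.20), while Myh4 was at 0 in every late library. Among channel subunits of skeletal muscle, Scn4a was lower in late cKO hearts, Cacna1s overlapped and Cacnb1 was higher.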

How the data were processed

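RNA of 14 hearts was measured by RNA-seq, from 100 ng of total RNA per library with single-end reads of 100 nt, per the labels' protocols. The deposited values are whole-number counts per gene symbol, 1 table per time, and nothing in the values shows that the authors normalized them. The submitters' processing notes name Trimmomatic 0.36, STAR 2.6.0c and GRCm38. For the counting tool, its annotation and its use of strand, the record is: not given in the sources used here.

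Counts were tested per time with edgeR 4.0.16 in R 4.3.3 (quasi-likelihood F test, TMM, filterByExpr with a minimum count of 10 and a total of 15), with Benjamini-Hochberg adjustment over all genes and a call under 0.05. Every adjusted p in the text is from this test unless another tool is named. The difference between times is the genotype-by-time contrast over all 14 libraries. Alternatives were other scaling factors, DESeq2 1.42.0, other filters, a replicate block, each library left out, and early cKO replicate 4 as a control. Each standard error is the size of the log2 fold change over the root of its F value. CPM use TMM-scaled library sizes within a table, and CPM per kb divide by the exon-union length of GENCODE M21, which also gave gene coordinates (GRCm38). A fold is the ratio fitted by edgeR.

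The channel genes, the partner lists and the marker lists were chosen with earlier results of these data known. Genes given in full were those called in any comparison plus a fixed list of channel genes, and up to 4 called genes per partner list with the smallest p, except that some channel and partner genes are not reported here by name and enter only counts and sums. No library was a copy of another: the chi-square per gene within groups was 3.69 or more. Since no label says that every library came from its own animal, the p-values refer to the spread between libraries, which may be technical. RefSeq promoter windows were found for 19 of the 27 genes, 27 windows in all. Those of Scn4b, Scn4a and Cacng6 overlap exons and are not printed. Exons of genes on the other strand overlap those of 8 of the 27 genes.

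On simulated counts with 200 changed genes, the early fit recovered 75% of 1.5-fold and 99% of 3-fold changes over 13419 genes. The late fit recovered 12% and 99% over 14704 genes, and the difference between times 18% and 96% over 14246 genes.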

Additional observations from a re-analysis of the deposited data

Results flagged for a closer look

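Of 48 gene and group sets of early libraries described by name, 4 held a library set apart from the other 3 of its group, and chance alone sets apart about 1 in 20 such sets. Cacna2d2 stood at 11.6 CPM in early cKO replicate 2, the library that was also high in atrial markers. Cacna2d1 stood at 141 CPM in early cKO replicate 3, the lowest of its group. Cacna1d stood at 1.52 CPM in early cKO replicate 1 and at 1.41 CPM in early control replicate 3, the lowest of their groups. Groups of 3 late libraries were not examined for this.

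The knockout effect differed between the times for 12 of the genes described by name, by the contrast of both effects, given as late minus early log2 fold changes. The late effect was the more negative for Scn4b (-4.90), Cacng6 (-3.89), Scn4a (-3.31), Cacna1g (-2.64), Scn2b (-2.09), Scn3b (-1.35), Cacnb4 (-0.96), Cacnb2 (-0.73), Cacna2d1 (-0.58) and Scn7a (-0.48). It was the more positive for Cacnb1 (3.61) and Cacnb3 (0.56). Time and count table cannot be told apart in these differences.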

How the results depend on the processing

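No called fold change of a channel gene turned round under the alternatives tried. Of the 16 late calls, 11 held under every alternative, and those of Cacna1a, Cacnb4, Cacng7, Hcn2 and Scn7a did not. The late count of channel genes was 11 to 20 over the alternatives, and the count for the difference between times 10 to 16. Of the 13 calls for that difference, 8 held under every alternative, and those that did not include Cacnb3, Cacnb4, Scn3b and Scn7a. Early, no channel gene was called with any single library left out or with cKO replicate 4 counted as a control, while DESeq2 called 1 channel gene and the fit with no filter 2 (Scn4b and Scn10a). Over all genes the early count of 83 became 176 with DESeq2, 388 with no filter and 162 with cKO replicate 4 counted as a control, and it ranged from 45 to 181 when single libraries were left out, the cause of which was not tested. The highest came without cKO replicate 4. Without cKO replicate 2 it was 46, and with a control left out it was 54 (replicate 2), 46 (replicate 3) and 45 (replicate 4). Same-numbered libraries did not vary together (correlations from -0.412 to -0.036), so replicate numbers are not pairs; with a replicate block the fits called 0 channel genes early, 11 late and 11 for the difference between times. Upper-quartile scaling moved the median of all genes by -0.17 late and by -0.19 for the difference, and called 3 channel genes higher and 13 lower late, and 1 higher and 12 lower for the difference. Of all late calls 39.8% were then higher, against 49.0% with TMM, and 37.4% against 48.8% for the difference. The late test recovered few simulated 1.5-fold changes, so a gene that missed the threshold may differ by that much.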

Other observations

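The other 16 symbols with a channel name reached at most 12 counts in any library. In the promoter windows of the 27 channel genes, the letters CAGCTG on either strand were found in 7 of 27 windows (25.9%), beside 13.0% of all 32817 windows, and in 6 of the 19 genes with a window. TGATGNAA was found in 1 window, that of Cacna1c (3.70%, beside 3.45% of all), and TATAAA in 1 (3.70%, beside 12.4%). TGACGTCA was found in none, beside 1.55% of all windows. Windows of 1 gene can overlap, and a match of letters is a description only.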
